A study of Homo sapiens with 2 samples.

Results

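The cytosolic ribosome of human cells carries one copy of nearly every ribosomal protein, and the genes of these proteins are the subject here: all gene symbols that begin with RPL or RPS, go on with digits and end with an optional A or X, plus RPLP0, RPLP1, RPLP2 and RPSA. The Y-linked copies were left out. This rule gave 77 genes among the 36601 listed, 46 of the large and 31 of the small subunit, and it used no measured value. HT1080 is an established human fibrosarcoma line of wild-type genotype by its label. Spheroids of 2000 cells, about 50 per sample in 500 µl of collagen, were left to invade for 72 h. The 4B4 culture received 2 µg/ml of the 4B4 antibody, which inhibits β1 integrin, and the control culture did not; its label names no control antibody. Each group is 1 library, so antibody and library cannot be told apart and no difference has a replicate check.

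Ribosomal proteins are made in equal numbers and joined to ribosomal RNA in the nucleolus, and surplus copies are degraded. Their messenger RNAs begin with a run of pyrimidines, the 5′ terminal oligopyrimidine (TOP) tract, through which mTOR signalling and the protein LARP1 control their translation together. In growing cells these messages are among the most abundant, which makes them a large part of any single-cell library.

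The libraries held 119566832 unique molecular identifiers (UMIs) in 1759 barcodes for 4B4 and 128375944 UMIs in 3642 barcodes for the control, with 2 barcodes in common. Barcodes were kept as cells where 1000 genes or more were seen and no more than 20% of UMIs were mitochondrial, which left 1385 in the 4B4 and 3402 in the control library. Their median depth was 68556 UMIs in 4B4 cells and 32914 in control cells, and their median mitochondrial share 7.63% in 4B4 and 9.16% in control cells. All 7 fibrosarcoma markers looked at were measured (VIM at 1392 UMIs per 1000000 UMIs of the library, or UPM, in 4B4 cells and 1830 UPM in control cells). Of 11 markers of epithelial, blood and endothelial cells only PECAM1 passed 5 UPM, at 45.8 UPM in 4B4 and 30.3 UPM in control cells, KRT5 was at 0 in both libraries, and the list summed to 51.1 UPM in 4B4 and 36.1 UPM in control cells. Fewer cells of a kind and less RNA per cell cannot be told apart in summed levels.

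The 77 genes took 21.04% of all UMIs in the 4B4 library (exact 95% interval 21.04% to 21.05%) and 20.57% in the control library (20.56% to 20.58%), a log2 ratio of 0.033. All intervals given here cover counting error only and say nothing of the variation between cultures. In single cells the order was the other way round: the median share was 19.8% in 4B4 cells and 20.3% in control cells. The log2 ratio turned to -0.065 with each cell weighing the same, to -0.043 when every cell was thinned to 17000 UMIs, to -0.084 over cells of 20000 to 60000 UMIs and to -0.0050 when mitochondrially encoded genes were left out of the total. No direction is therefore given for the family as a whole. The large subunit genes together had a log2 ratio of 0.043 and the small subunit genes of 0.018, so the subunits moved little against each other.

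Every member was well measured. The lowest level was that of RPS20, at 590.2 UPM in 4B4 cells and 668.5 UPM in control cells, and the highest that of RPS18, at 7934 UPM in 4B4 and 7857 UPM in control cells. The kit tags each molecule at its 3′ end, so these UMI levels count molecules and were not divided by gene length. Medians over the 77 genes were 2623 UPM in the 4B4 and 2518 UPM in the control library. After thinning to 17000 UMIs, the least often detected member was seen in 98.3% of 4B4 cells and 99.97% of control cells. Levels had much the same order in both libraries, with a Spearman rho of 0.92 across the 77 genes, which are not independent replicates.

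**Figure D1:**
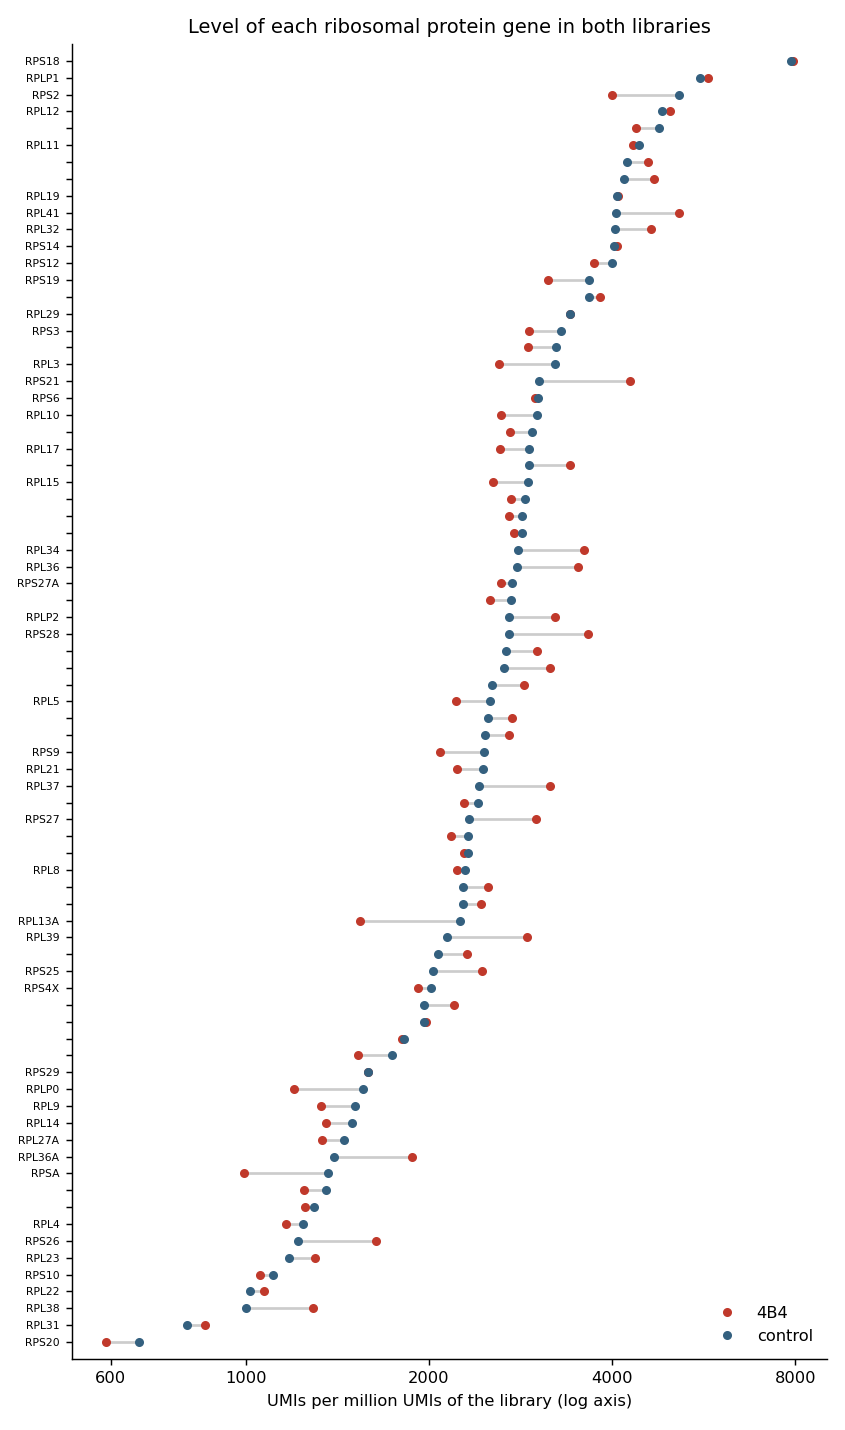
Level of each of the 77 ribosomal protein genes in UMIs per 1000000 UMIs of the library (log axis), with one point for the 4B4 and one for the control library and genes ordered by the control level; members given by name in the text are labelled. Levels run from 590.2 UPM for RPS20 to 7934 UPM for RPS18 in the 4B4 library, and most pairs of points lie close together, RPS21 and RPL13A being among the widest gaps.

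In 4B4 cells 12 members were higher than in control cells by 1.2-fold or more and 5 were lower by as much, each with an interval that excluded 1. Of all 6781 genes of 20 UPM or more, 12.1% were higher and 14% lower by this rule. Among the 723 genes of 200 UPM or more the shares were 23% and 13.1%. No member reached 1.5-fold, against 1.8% higher and 4.42% lower of the 6781 genes and 2.21% and 3.73% of the 723. As shares of the family, 15.6% of members were higher, between those backgrounds, and 6.49% lower, below both.

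Higher in 4B4 cells were RPS21, RPL39, RPS28, RPS26, RPL36A, RPL37, RPL38, RPL34, RPS27, RPL41, RPL36 and RPS25. RPS21, a small subunit protein (ENSG00000171858, chr20:62387116-62388520, plus strand, GRCh38), was at 4274 UPM in 4B4 cells and 3036 UPM in control cells, a log2 ratio of 0.49 (0.49 to 0.50) and the highest of the family. RPL39, which lines the exit tunnel for the nascent chain (ENSG00000198918, chrX:119786504-119791643, minus strand), was at 2896 UPM in 4B4 and 2141 UPM in control cells, a log2 ratio of 0.44. RPL39 rests on 337294 UMIs in the 4B4 and 272310 in the control library, so counting error is small beside these differences.

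RPS28, a small subunit protein at the path by which the messenger leaves, was at 3646 UPM in 4B4 cells and 2710 UPM in control cells. RPS26, which lies at the same path, was at 1636 UPM in 4B4 and 1217 UPM in control cells. RPL36A, a large subunit protein near the tRNA exit site, was at 1877 UPM in 4B4 and 1398 UPM in control cells. The 95% intervals of the libraries were apart for each of these genes. RPL37, RPL38, RPL34, RPS27, RPL41 and RPL36 had log2 ratios of 0.39, 0.37, 0.36, 0.36, 0.34 and 0.33. RPL38 is known in mouse for its part in translating Hox messages, and RPL41 encodes the shortest protein of the family. The call of RPS25 (log2 ratio 0.27) was lost in 7 of the 12 alternatives, among them the one without a cell filter (0.24). The call was lost in 4 for RPL36 and in 3 each for RPL34 and RPL41; with each cell weighing the same they had 0.23, 0.22 and 0.18.

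Lower in 4B4 cells were RPL13A, RPSA, RPLP0, RPS2 and RPL3. RPL13A, a large subunit protein whose introns also encode small nucleolar RNAs (ENSG00000142541, chr19:49487554-49492308, plus strand), was at 1543 UPM in 4B4 cells and 2252 UPM in control cells, a log2 ratio of -0.55 (-0.55 to -0.54). RPSA, a small subunit protein also known as the laminin receptor (ENSG00000168028, chr3:39406689-39412542, plus strand), was at 992.9 UPM in 4B4 and 1367 UPM in control cells, a log2 ratio of -0.46. RPLP0, the base of the ribosomal stalk that recruits elongation factors (ENSG00000089157, chr12:120196686-120201235, minus strand), was at 1202 UPM in 4B4 and 1558 UPM in control cells, a log2 ratio of -0.37.

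RPS2, near the messenger entry channel, was at 4002 UPM in 4B4 cells and 5161 UPM in control cells. RPL3, which reaches towards the peptidyl transferase centre, was at 2602 UPM in 4B4 cells and 3223 UPM in control cells, and its call was lost under TMM scaling and with the length trend of other genes removed (-0.26 in each). RPSA kept -0.33 when only G1 cells were compared, and RPL13A -0.55. Just short of the threshold on this side were RPS9 (-0.24), RPS19 (-0.23), RPL10 (-0.20), RPL15 (-0.19) and RPL9 (-0.19).

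Apart from RPLP0, the members of the next group differed by less than 1.2-fold. RPL5 and RPL11, which with 5S RNA bind MDM2 when ribosome assembly fails, had log2 ratios of -0.18 and -0.03. RPS6, the target of S6 kinases, had -0.02 and RPS3, which lines the messenger entry channel, had -0.17. The stalk proteins RPLP1 and RPLP2, which dimerise on RPLP0, had 0.05 and 0.25, against -0.37 for RPLP0. RPS10 and RPS20, both ubiquitinated at collided ribosomes, had -0.07 and -0.18, RPS27A, made as a fusion with ubiquitin, -0.06, and RPL22, RPL17, RPS4X and RPL10 had 0.08, -0.16, -0.07 and -0.20. Reads of processed pseudogenes, which many members have, may have been lost or split by the authors' counting, which is not described in the sources used here.

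The ratio followed the length of the coding sequence. Across the 77 genes Spearman's rho between coding length (GENCODE 29) and the log2 ratio of 4B4 over control was -0.78, as a description over genes that share libraries and depth. By annotated transcript length rho was only -0.32. Members below 400 coding bases (25 genes) took 6.97% of UMIs in 4B4 cells and 5.87% in control cells, a log2 ratio of 0.25, with 22 above 0 and 3 below it (RPS29, RPS12 and RPS20). Those from 400 up to 600 bases (30 genes) took 8.98% in 4B4 and 9.01% in control cells, and those of 600 bases or more (22 genes) 5.10% in 4B4 and 5.69% in control cells, with 1 above and 21 below 0. These length classes were chosen after the values had been seen.

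The shortest coding sequences of the family are printed here, with start and stop codons in capitals, because the genes at this end carry the higher ratios. They are GENCODE 29 sequences on GRCh38, of RPL41 (chr12:56116586-56117943, plus strand, gene span) with 78 bases including the stop codon and of RPL39 (gene span given above) with 156.
RPL41: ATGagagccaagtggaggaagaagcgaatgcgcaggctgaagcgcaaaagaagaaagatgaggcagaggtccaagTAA
RPL39: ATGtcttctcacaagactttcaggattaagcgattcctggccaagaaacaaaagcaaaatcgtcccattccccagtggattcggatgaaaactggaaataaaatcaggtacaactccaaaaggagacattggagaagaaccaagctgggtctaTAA
RPS29 is the exception among the shortest, with 168 coding bases, 1587 UPM in 4B4 cells, 1590 UPM in control cells and a log2 ratio of -0.0032. At the other end RPL4 has 1281 coding bases and a log2 ratio of -0.09, smaller in size than that of RPL3 (1209 bases, -0.31).

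Other abundant genes showed the same direction, less steeply by coding length only. For coding length, over 500 other genes of 200 UPM or more and under 1300 coding bases, rho was -0.34. The slope per doubling of coding length was -0.11 on the log2 scale, against -0.24 over the members. By annotated transcript length the members were the less steep set, with a slope of -0.047 against -0.090 over these 500 genes (rho -0.31). By coding length, the median log2 ratio of the other genes was 0.30 from 200 up to 300 bases (58 genes), where 6 members had a median of 0.38. From 800 up to 1300 bases it was 0.0018 (116 genes), where 7 members had -0.31. With the trend of the other genes taken off, an alternative chosen after the data had been seen, rho over the members was still -0.58. By it 2 members were at least 1.2-fold higher and 8 lower, and RPL41 turned to -0.07. RPL41 has 75 coding bases and the shortest of the 500 genes, OST4, has 111, so this value rests on a straight line drawn past them. Other genes under 200 bases (21 genes) had a median log2 ratio of 0.33, beside 0.34 for RPL41. The cause of the length dependence was not tested, and antibody and library cannot be told apart here.

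**Figure D2:**
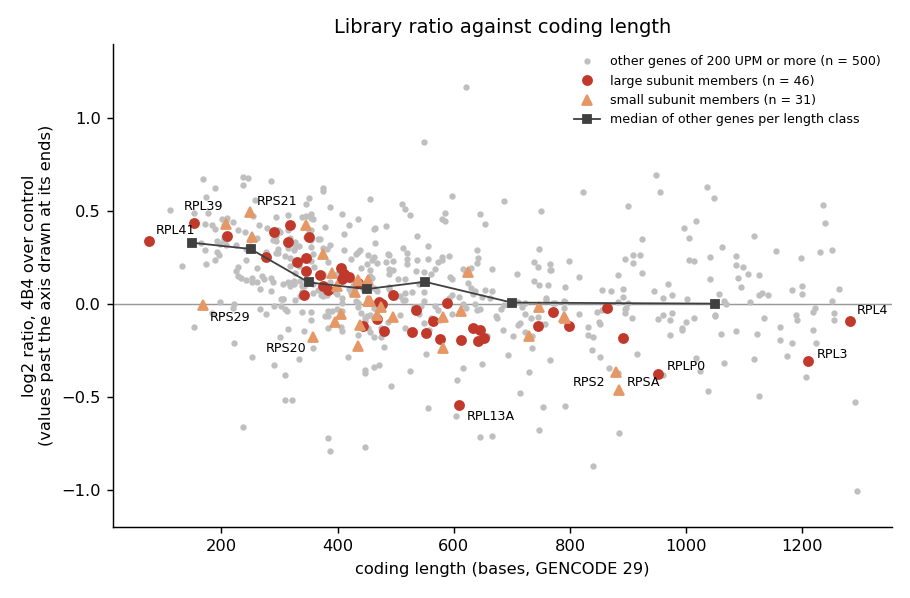
Log2 ratio of 4B4 over control (vertical axis) against coding length in bases for the 46 large and 31 small subunit genes and for 500 other genes of 200 UPM or more, with the median of the other genes per length class. RPL39 stands at 0.44 near the short end and RPL3 at -0.31 near the long end, and RPS29 and RPS20 lie below other short members.

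The same shift was looked at cell by cell, with the same UMIs and the length classes chosen after the values had been seen. Cells of a library share its preparation and are not replicates, so the spread over cells is a description and no further check. For each cell, the UMIs of the 25 short members (under 400 coding bases) were divided by those of the 22 long ones (600 or more). The median log2 of this ratio was 0.44 in 4B4 cells (5th to 95th percentile 0.22 to 0.68) and 0.07 in control cells (-0.15 to 0.34). Of the 4B4 cells 98.8% lay above the control median, and of the control cells 1.85% lay above the 4B4 median, so the distributions overlapped little.

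The gap was present in all 3 phases, in all 4 MALAT1 classes described further on and over a shared range of depth. Medians were 0.45 in 4B4 and 0.09 in control cells called G1, 0.41 in 4B4 and 0.06 in control S cells, and 0.35 in 4B4 and -0.0086 in control G2M cells. Over cells of 20000 to 60000 UMIs, where depth is closer, they were 0.46 in 4B4 and 0.07 in control cells. Within a library the ratio also moved with cell state, by less: it was lowest in G2M cells and highest in the MALAT1-richest quartile of G1 cells (0.49 in 4B4, 0.16 in control).

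**Figure D3:**
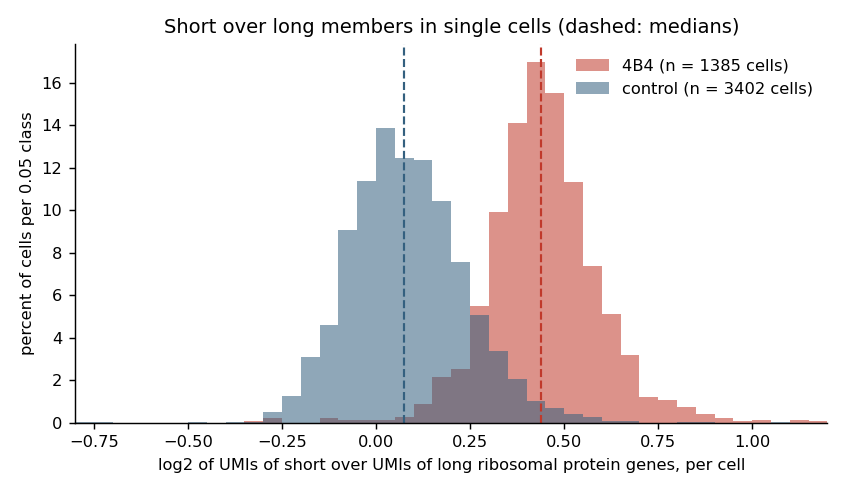
Percent of cells per class of the log2 ratio of UMIs from 25 short over 22 long ribosomal protein genes, for 1385 cells of the 4B4 library and 3402 of the control library. The dashed medians stand at 0.44 for 4B4 and 0.07 for control cells.

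Promoters were compared at both ends of the ratio order, since TOP tracts are the known shared feature of these genes. RefSeq promoters (GRCh38.p14, 250 bases before to 50 after the start) were found for 62 members. Of these 42 began with C followed by at least 4 pyrimidines (67.7%), against 3.90% of 27243 other promoters. The windows below run from 50 bases before to 20 bases after the start of the 3 genes with the highest and the 3 with the lowest ratio, with the longest pyrimidine run within 5 bases of the start in capitals.
RPS21: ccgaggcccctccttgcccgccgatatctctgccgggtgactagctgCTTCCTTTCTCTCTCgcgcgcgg
RPL39: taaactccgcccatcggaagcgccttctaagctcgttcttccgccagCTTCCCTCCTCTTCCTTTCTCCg
RPS28: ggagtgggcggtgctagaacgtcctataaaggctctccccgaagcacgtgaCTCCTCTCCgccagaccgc
RPLP0: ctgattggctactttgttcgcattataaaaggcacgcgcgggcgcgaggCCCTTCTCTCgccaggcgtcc
RPSA: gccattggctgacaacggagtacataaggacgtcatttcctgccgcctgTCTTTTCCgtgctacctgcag
RPL13A: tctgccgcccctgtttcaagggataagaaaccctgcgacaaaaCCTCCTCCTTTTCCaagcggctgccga
They lie at chr20:62387053-62387122 (plus), chrX:119791611-119791680 (minus), chr19:8321446-8321515 (plus), chr12:120201092-120201161 (minus), chr3:39406670-39406739 (plus) and chr19:49487558-49487627 (plus), in the order printed. Pyrimidine runs of 8 to 22 bases stood at the starts of both the higher and the lower genes, and all but RPS28 began with C and 4 pyrimidines. Of letter motifs searched on both strands of the 300 bases, CCGGAAG was in 33.9% of member promoters and 10.6% of others, AAGATGG in 12.9% and 6.05%, TATAA in 17.7% and 21.2%, and GGGCGG in 54.8% and 44.6%. Matches of different motifs may overlap, and they describe letters only.

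The family's share differed more across classes of MALAT1 level than between the libraries. MALAT1 is a long noncoding RNA kept in the nucleus, and cells were put in 4 classes of equal number by its level (per UMIs outside the members, mitochondrial genes and MALAT1 itself) among G1 cells of each library. These quartiles, from low to high, had a median share of ribosomal protein UMIs of 23.7%, 22.1%, 18.9% and 15.4% in 4B4 cells and 24.1%, 21.4%, 19.3% and 16.7% in control cells. The log2 ratio of highest over lowest quartile for the family total was -0.75 in the 4B4 and -0.56 in the control library. Quartiles were cut within each library and span unlike ranges. Between them MALAT1 itself had a log2 ratio of 7.13 in the 4B4 and 5.47 in the control library. The sizes of quartile ratios, here and below, are therefore not like for like between the libraries.

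Between these quartiles 70 of 77 members in the 4B4 library and 69 of 77 in the control library were at least 1.2-fold lower in MALAT1-rich cells. In each library 1 member, RPS20, was higher by as much. Of genes of 20 UPM or more, 34% were lower and 52.7% higher in the 4B4 library, and 31.2% lower and 49.5% higher in the control library. Of genes of 200 UPM or more, 74.4% were lower and 15.2% higher in the 4B4 library, and 71.2% lower and 13.1% higher in the control library, so the members went the way of most abundant genes. RPS20, ubiquitinated at stalled ribosomes, was higher in MALAT1-rich cells, with log2 ratios of 0.70 in the 4B4 and 0.34 in the control library. RPL23, which binds MDM2, had 0.19 in 4B4 and 0.15 in control cells, and RPL27A 0.08 in 4B4 and 0.02 in control cells. RPL31 had -0.21 in 4B4 and -0.04 in control cells.

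Among the members at the other end were RPL8 (-1.08 in 4B4 and -0.83 in control), RPL19 (-1.05 in 4B4 and -0.77 in control), RPL29 (-1.10 in 4B4 and -0.71 in control) and RPS3 (-0.96 in 4B4 and -0.77 in control). The members' ratios had a Pearson r of 0.95 between the libraries across the 77 genes, with the same sign in 77. Gene span did little to order them (Spearman rho 0.21 in the 4B4 and 0.12 in the control library). The family's share was lower in cells with a higher mitochondrial share: its median was 26.7% in 4B4 cells and 27.2% in control cells with up to 2% mitochondrial UMIs, and 17.4% in 4B4 and 19.2% in control cells at 10 to 15%. In the 35 4B4 cells at 15 to 20% it was 2.00%, against 18.1% in 127 control cells. Mitochondrial UMIs are part of the total, and without them the medians were 26.9% in 4B4 and 27.3% in control cells in the lowest class, and 19.7% in 4B4 and 21.9% in control cells at 10 to 15%.

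Cells with very few ribosomal protein UMIs were more often from the 4B4 library: 91 of 1385 cells had a share below 10% in 4B4 (6.57%, Clopper-Pearson interval 5.32% to 8.01%), and 36 of 3402 in the control (1.06%, 0.742% to 1.46%). They were shallow, at medians of 17905 UMIs in 4B4 and 17199 in control cells, and rich in MALAT1, at medians of 81316 in 4B4 and 64736 in control cells per 1000000 of the UMIs that define the quartiles. The bound of 10% was set after the data had been seen. Leaving them out took the highest MALAT1 quartile from 288 to 252 cells in 4B4 and from 526 to 512 in control, and took no cell from the lowest. The log2 ratio of highest over lowest quartile became -0.65 in the 4B4 and -0.54 in the control library. Because the cells were picked by the share itself, this ratio could only shrink in size. What these cells are was not tested.

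**Figure D4:**
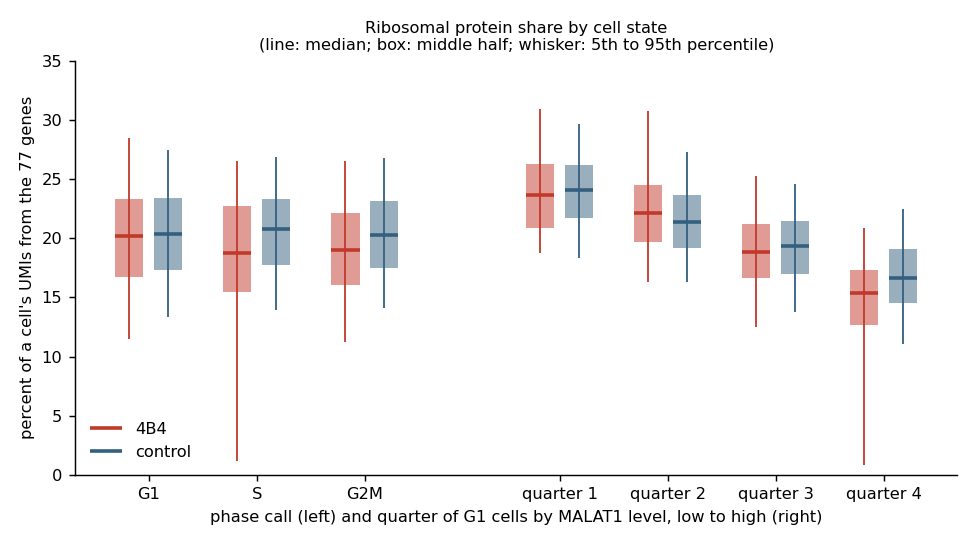
Percent of a cell's UMIs from the 77 genes by called phase and by quartile of G1 cells on MALAT1 level (low to high), for the 4B4 and the control library. Lines are medians, boxes the 25th to 75th and whiskers the 5th to 95th percentile; the medians fall from 23.7% to 15.4% across the quartiles in 4B4 cells and from 24.1% to 16.7% in control cells.

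Across the cell cycle most members were lower outside G1 in the 4B4 library, while in the control library about as many lay above as below. Phases were called from 43 S and 54 G2M genes, none of them a member, giving 1150 G1, 79 S and 82 G2M cells in the 4B4 and 2103, 389 and 607 in the control library. The family total of G2M over G1 cells had a log2 ratio of -0.12 in the 4B4 and -0.0058 in the control library, and of S over G1 cells -0.17 in the 4B4 and -0.0022 in the control library, a control value that turned to 0.018 with each cell weighing the same. Of the 77 members 62 in the 4B4 and 41 in the control library were below 0 in G2M over G1 cells, and 68 in the 4B4 and 43 in the control library in S over G1 cells. Other abundant genes leaned the same way in the 4B4 library. Over 634 other genes of 200 UPM or more the median for G2M was -0.05 in 4B4 and -0.0077 in control. For S it was -0.07 in 4B4 and 0.0029 in control. The members' medians were -0.12 and -0.02 for G2M, and -0.16 and -0.02 for S. Over 6691 other genes of 20 UPM or more all 4 medians were positive. In G2M cells 2 members were at least 1.2-fold higher and 4 lower in the 4B4 library, against 30.5% and 10.4% of all genes of 20 UPM or more and 16.3% and 18.7% of those of 200 UPM or more. In the control library 2 were higher and 0 lower, against 25.6% and 17.5%, and 18.4% and 20.2% at the higher floor. In S cells 0 were higher and 9 lower in the 4B4 library (30.6% and 12.6% of all genes, 14.9% and 18.8% at the higher floor), and 2 higher and 0 lower in the control library (22.6% and 18.5%, 16.6% and 13.6%).

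RPSA and RPLP0, both among the genes lower in 4B4 cells, were higher in G2M than in G1 cells. RPSA had a log2 ratio of 0.32 in the 4B4 and 0.47 in the control library, and RPLP0 0.26 in 4B4 and 0.41 in control. RPS20 had 0.34 in 4B4 and 0.20 in control, RPS29 0.14 in 4B4 and 0.24 in control, and RPL14 0.08 in 4B4 and 0.24 in control. At the low end were RPL34 (-0.27 in 4B4, -0.24 in control), RPL32 (-0.29 in 4B4, -0.17 in control), RPL12 (-0.30 in 4B4, -0.14 in control), RPL29 (-0.31 in 4B4, -0.12 in control) and RPS14 (-0.24 in 4B4, -0.16 in control). S over G1 cells had 4 of these 5 highest and all 5 lowest members at its own ends, with RPLP0 (0.15 in 4B4, 0.33 in control) and RPSA (0.09 in 4B4, 0.37 in control) highest and RPL29 (-0.35 in 4B4, -0.11 in control) lowest; RPL21 replaced RPL14. The members' G2M ratios had a Pearson r of 0.86 between libraries, and 60 of 77 lay on the same side of their library's median. The mix of phases differs between the libraries. With phases given the same weight the log2 ratio of 4B4 over control was -0.38 for RPSA and -0.31 for RPLP0, and over G1 cells only it was -0.33 for RPSA and -0.26 for RPLP0, the last at the 1.2-fold threshold.

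**Figure D5:**
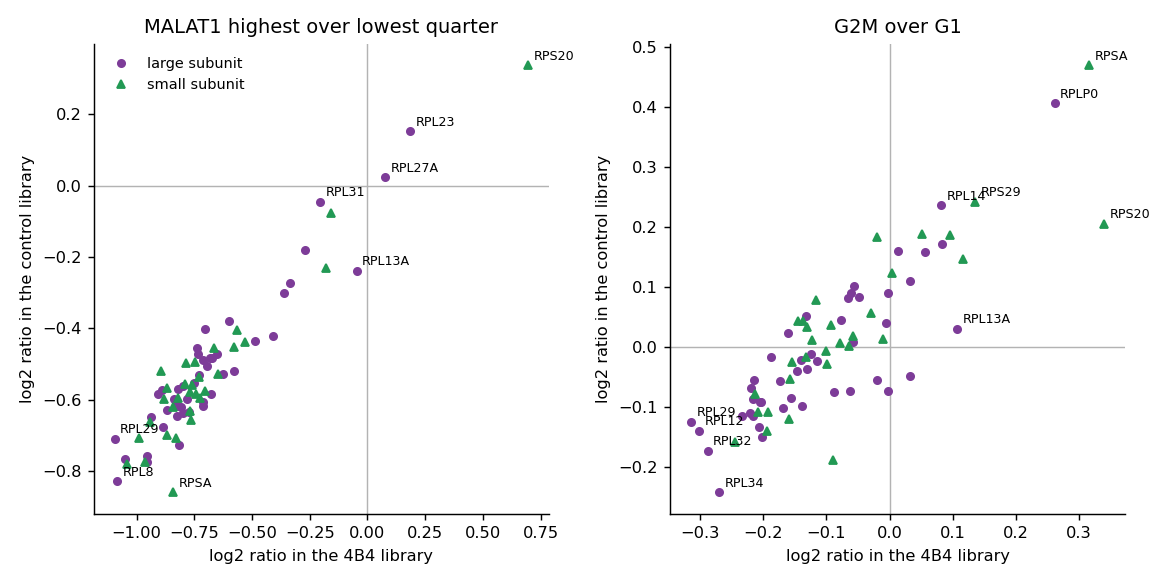
Log2 ratio of each member between MALAT1-richest and MALAT1-poorest quartiles of G1 cells (left) and between G2M and G1 cells (right), with the 4B4 library on the horizontal and the control library on the vertical axis. RPS20, RPL23 and RPL27A are above 0 on both axes at left, and RPSA, RPLP0 and RPS20 lead at right.

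Within single cells the members moved together. The correlation between a member's level and the summed level of the other members, over cells thinned to 17000 UMIs, had a median Pearson r of 0.91 in 1311 4B4 cells and 0.78 in 3099 control cells, as a description of cells that share a library. Over 533 genes outside the family the median r with the members' summed level was 0.45 in 4B4 and 0.25 in control cells. Genes outside the family thus also tended to follow the members, though less closely. For both sets the median r was higher in 4B4 than in control cells. The members' share also spread more widely over kept 4B4 cells (5th to 95th percentile 6.20% to 28.5%) than over kept control cells (13.3% to 27.3%). Pearson r depends on such spread, and its part in the difference was not tested. Among the members RPS20 followed least (0.36 in 4B4 and 0.07 in control), then RPL23 (0.67 in 4B4, 0.22 in control) and RPL31 (0.69 in 4B4, 0.36 in control). RPS20 and RPL31 were also the least abundant members in both libraries, at ranks 77 and 76 by level. Fewer counts per cell can lower r, and the part of level was not tested. Outside the family RACK1, a scaffold protein on the small subunit, followed most closely (0.89 in 4B4, 0.77 in control), and SNHG29, EEF1A1, EEF1G, NACA, FAU, BTF3, UQCRH and GAPDH were among the next. Those going most against it were FNDC3B (-0.56 in 4B4, -0.49 in control), MALAT1 (-0.48 in 4B4, -0.57 in control), IGF2BP2, ZFPM2-AS1, CCDC144NL-AS1, AP005262.2, PTPRG, NEAT1, CDH13 and PTPRM.

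Of the related genes outside the rule, 7 of 10 were measured at 5 UPM or more. FAU, a fusion whose ribosomal part is RPS30, had a log2 ratio of 0.05. RPS27L, a stress-linked paralog of RPS27, was at 619.5 UPM in 4B4 cells and 754.3 UPM in control cells, a log2 ratio of -0.28, the only one lower by 1.2-fold, and RPS27 itself was higher. Measured paralogs with smaller ratios were RPL22L1 (0.08), RPL36AL (0.10), RPL26L1 (-0.01) and RPL7L1 (-0.09), and RPL3L, RPL10L and RPL39L were below the floor.

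Among 19 translation factors and other TOP messages 0 were higher and 5 lower in 4B4 cells (26.3%). Of all 6781 genes of 20 UPM or more 12.1% were higher and 14% lower. Of the 723 genes of 200 UPM or more, a level most of the 19 reach, 23% were higher and 13.1% lower. Outside the family and the mitochondrial genes, the median log2 ratio was -0.0023 over 6691 genes of 20 UPM or more. It was 0.064 over 634 genes of 200 UPM or more. Over the 19 messages the median was -0.10. The lowest were HNRNPA1 (-0.38) and NPM1 (-0.37), a nucleolar chaperone of ribosome assembly, then EEF1G (-0.28) and NAP1L1 (-0.28). Of 43 ribosome biogenesis genes 1 was higher and 11 lower (25.6%, against the same 14%), at a median of -0.13. NOP56, a core protein of small nucleolar particles, was at 68.8 UPM in 4B4 cells and 112.5 UPM in control cells (-0.71), DKC1, the pseudouridine synthase, had -0.58, FBL, the methyltransferase fibrillarin, -0.52 and RRP12, a small subunit export factor, -0.52. Over this list the median log2 ratio of G2M over G1 cells was 0.24 in 4B4 and 0.22 in control cells. Over the 6691 other genes it was 0.11 in 4B4 and 0.04 in control cells. For S over G1 cells the list had 0.33 in 4B4 and 0.25 in control cells, and the other genes 0.08 and 0.0083. G2M cells were 5.92% of 4B4 and 17.8% of control cells kept, and S cells 5.70% and 11.4%. Of the TOP messages named, HNRNPA1, NPM1 and NAP1L1 were also higher in G2M than in G1 cells of both libraries, and EEF1G had -0.02 in 4B4 and 0.04 in control. The part of the phases in these differences was not tested.

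The shares lower in the next lists are set beside the 14% of all genes of 20 UPM or more. List genes here and in the preceding paragraph were counted from 5 UPM, so the floors differ. TAF1A, TSR2, MYC and SESN2, named below, were under 20 UPM in both libraries. Of 12 small nucleolar RNA host genes 0 were higher and 3 lower (25%; SNHG1 -0.59, SNHG7 -0.29, SNHG32 -0.27), and of 10 RNA polymerase I genes 0 were higher and 2 lower (20%; TAF1A -0.45, POLR1E -0.43). Of 15 chaperones and importins of ribosomal proteins 0 were higher and 2 lower (13.3%, near that of all genes; IPO5 -0.46, TSR2 -0.31). Of 21 measured genes of mTOR, MYC and TOP control 1 was higher (MLST8, an mTOR subunit, 0.32) and 4 lower (19%). MYC, a transcription factor that drives ribosome production, was at 6.70 UPM in 4B4 cells and 11.9 UPM in control cells (-0.82), followed by SESN2 (-0.47) and SESN1 (-0.43). Of 13 stalling and rescue genes 1 was higher (RNF10 0.28) and 2 lower (15.4%, also near that of all genes; ASCC3 -0.40, ABCE1 -0.34). The 78 mitochondrial ribosomal protein genes, which build the separate ribosome of that organelle, had 8 higher (10.3%) and 5 lower (6.41%) at a median of -0.0080, led by MRPS6 (0.63) and at the low end by MRPS9 (-0.42).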

How the data were processed

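Single-cell RNA was counted in 1 library of 4B4-treated and 1 of control HT1080 spheroids. The authors deposited one matrix of raw counts (UMIs by gene and barcode) per library, written by Cell Ranger 7.1.0 per the file headers. GRCh38 and Seurat 5.0.1 are named in the submitters' processing notes. Annotation, intron counting and read depth were not given in the sources used here.

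Kept cells showed 1000 genes or more, with mitochondrial UMIs no higher than 20%. Levels are UMIs per 1000000 UMIs of the library, and ratios are 4B4 over control, log2, with no pseudocount and Clopper-Pearson 95% intervals. With 1 library per group no test was run. A member counted as higher or lower at 1.2-fold with its interval on the same side. Cells were thinned to 17000 UMIs for phases (scanpy 1.11.5) and correlations, leaving out 74 4B4 and 303 control cells. TMM factors came from edgeR 4.0.16. Gene positions and coding lengths are from GENCODE 29 (94.58% of IDs matched). Intervals and thinning were tested on simulated data. Doublets were not removed.

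The members, gene lists and bounds were chosen with earlier results of these data known. Genes named are the ends of each ratio order, a fixed set of members, paralogs, up to 4 genes with the largest ratios per list, and the closest co-varying genes; RPL4, RPS12, RPL36 and RPS25 were named after their values were seen. Some genes this rule takes are not reported here.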

Additional observations from a re-analysis of the deposited data

How the results depend on the processing

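The log2 ratio of the family total (4B4 over control, 0.033) was -0.043 in thinned cells, -0.065 with each cell weighing the same, -0.0050 without mitochondrially encoded genes in the total and -0.084 over cells of 20000 to 60000 UMIs. It was 0.0083 without a cell filter, 0.050 under the stricter filter (2000 genes, 10% mitochondrial UMIs), 0.080 under TMM scaling, 0.041 with the members left out of the total, 0.049 in G1 cells, 0.021 with phases weighted equally and 0.055 over cells with a share of 10% or more, the last chosen after seeing the data. The count of members at least 1.2-fold lower (5) became 8 in thinned cells, 10 with cells weighted equally and 15 over cells of 20000 to 60000 UMIs. With the length trend of other genes removed it was 8, with 2 higher against 12. There RPL41 had -0.066, by a line drawn past the shortest of the other genes. The count higher (12) was 9 in thinned cells, 8 with cells weighted equally and 8 over cells of 20000 to 60000 UMIs, where it stood against 15 lower, and 15 under TMM scaling and under the stricter filter.

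G2M over G1 in 4B4 (-0.12) was -0.14 without mitochondrial genes, -0.17 under the stricter filter, -0.060 with cells weighted equally, -0.081 over cells of 20000 to 60000 UMIs and -0.12 over cells with a share of 10% or more; in control (-0.0058), in that order, -0.051, -0.072, -0.00829, -0.028 and -0.012. S over G1 in 4B4 (-0.17) was -0.19 under the stricter filter, -0.13 with cells weighted equally, -0.10 over the depth window and -0.14 with the share bound. In control (-0.0022) it was -0.033 without mitochondrial genes, -0.040 under the stricter filter, 0.018 with cells weighted equally, 0.021 over the depth window and -0.00834 with the share bound. Highest over lowest MALAT1 quartile in 4B4 (-0.75), in the order given for G2M, was -0.69, -0.67, -0.72, -0.64 and -0.65, and in control (-0.56) -0.54, -0.57, -0.52, -0.52 and -0.54. The cause of these shifts was not tested. RPL13A stayed between -0.58 and -0.50 and RPS21 between 0.32 and 0.54 over all settings but the length one. No paired analysis was possible because each group is 1 library. Counting error is small for every member, the least counted, RPS20, having 68726 UMIs in the 4B4 and 85039 in the control library, but depth per cell differs between the libraries, and thinning or the depth window changed calls as given above.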
